A study of Canis lupus familiaris with 6 samples.

Results

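Semaphorins, their plexin and neuropilin receptors, ephrins and EPH receptors, and the SLIT, ROBO and netrin genes were followed through RNA sequencing of 2 canine melanoma cell lines with and without podoplanin. Members were chosen by a rule on gene symbols: the class 3 to 7 semaphorins, the A to D plexins, NRP1 and NRP2, the EPHA and EPHB receptors, the ephrin-A and ephrin-B ligands, ROBO1 to ROBO4, SLIT1 to SLIT3 and NTN1 to NTN5. The choice was made with earlier results of these data known. The rule found 60 genes among the 30951 rows of the deposited tables, each symbol on a single row. Libraries were made from total RNA of the lines CMM12 and CMM2. The CMM12 podoplanin KO group held 2 libraries, KO 1 and KO 2, and was set against 1 CMM12 control library of genotype WT. The CMM2 podoplanin KO group likewise held 2 libraries, KO 1 and KO 2, against 1 CMM2 control library of genotype WT. Podoplanin, a small glycoprotein of the cell surface, links to the actin skeleton through ezrin and its relatives. The sources used here do not say how the knockouts were made, whether a KO line is a single clone or whether libraries came from separate cultures. The p-values therefore cover the spread among these libraries alone, and that spread may be technical.

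Guidance genes encode the cues and receptors that steer growing axons, and most of them also act on the movement, adhesion and vascular contacts of other cells, melanocytes and their neural crest ancestors included. Class 3 semaphorins are secreted and bind neuropilins, which pair with plexins to signal, whereas the other vertebrate semaphorins are held at the membrane and mostly bind plexins directly. Ephrins are membrane-bound ligands of the EPH receptor tyrosine kinases, so that both partners can signal at cell contacts. SLIT proteins are secreted ligands of ROBO receptors, and netrins are secreted relatives of laminin.

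The 6 libraries held 9732927 to 11807835 estimated counts. The podoplanin transcript PDPN stood at 16.0 and 10.8 TPM, a transcript share scaled for gene length, in CMM12 KO 1 and KO 2, against 94.3 TPM in the CMM12 control. In CMM2 it stood at 5.71 and 5.96 TPM in KO 1 and KO 2, against 19.1 TPM in the control, and every KO library was below the control of its line. Of 8 melanocyte markers, 3 reached 1 TPM in any library: MITF at 10.7 to 21.7 TPM, TYRP1 in CMM12 at 2.09 to 3.45 TPM and PMEL at 1.82 TPM in CMM12 KO 2. SOX10, MLANA, TYR, DCT and S100B lay at or near 0. Endothelial markers summed to 0.94 and 1.78 TPM in CMM12 KO libraries against 0.30 TPM in their control, and to 1.64 and 1.12 TPM in CMM2 KO libraries against 1.10 TPM in theirs. Only VWF of them reached 1 TPM, and in CMM2 KO 2 it lay below the control, at 1.00 against 1.10 TPM. In the other KO libraries VWF lay above the control. Epithelial markers summed to 1.39 and 1.94 TPM in CMM12 KO libraries against 2.02 TPM in their control, and to 0 in CMM2. Neuronal markers summed to at most 0.17 TPM. PTPRC and CD3E were at 0 everywhere, while the row named CD79A held 3150 to 4542 TPM in every library. That row may hold reads of another gene, which was not tested, and it is not read as an immune marker here. Fibroblast and mesenchymal markers summed to 154 and 337 TPM in CMM12 KO 1 and KO 2 against 141 TPM in the CMM12 control, most of it THY1. They did not move together there: THY1, PDGFRA and PDGFRB were above the control in both KO libraries. LUM was below it, at 0.27 and 0 TPM against 10.7 TPM, and DCN lay on both sides, at 8.98 and 0 TPM against 4.36 TPM. In CMM2, where THY1 was at 0, the sum was 25.6 and 39.0 TPM in KO libraries against 19.8 TPM in the control, most of it PDGFRA. The part of these markers in the results below was not tested. CMM2 KO 2 stood apart in its line: 9.33% of the 12270 tested genes differed at least 2-fold between it and the CMM2 control, against 2.49% for CMM2 KO 1. In CMM12 these shares were 9.39% for KO 1 and 11.03% for KO 2.

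Of the 60 guidance genes, 42 had enough counts to be tested, 8 had no count in any library and the other 10 had at most 14 counts over all 6 libraries. The untested genes were SEMA3E, SEMA3G, SEMA5A, SEMA5B, SEMA6A, PLXNA4, EPHA1, EPHA3, EPHA5, EPHA6, EPHA7, EPHA8, EPHB1, EPHB6, SLIT1, ROBO2, NTN3 and NTN5. Within families the signal was uneven: 1 EPHA receptor, EPHA2, carried nearly all EPHA signal, and no class 5 semaphorin was testable. EPHA2, a receptor tyrosine kinase activated by ephrin-A ligands, had the highest mean level of all members. Its level was 234 and 185 TPM in CMM12 KO 1 and KO 2 against 142 TPM in the CMM12 control, and 131 and 111 TPM in CMM2 KO 1 and KO 2 against 150 TPM in the CMM2 control. Next by mean level came SEMA7A, the lipid-anchored semaphorin, at 94.5 TPM, PLXNB2 at 74.7 TPM, SEMA3C at 67.9 TPM, NRP2 at 59.2 TPM and PLXND1 at 52.5 TPM, each a mean over the 6 libraries. In all, 18 members averaged at least 10 TPM and 34 averaged at least 1 TPM.

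**Figure D1:**
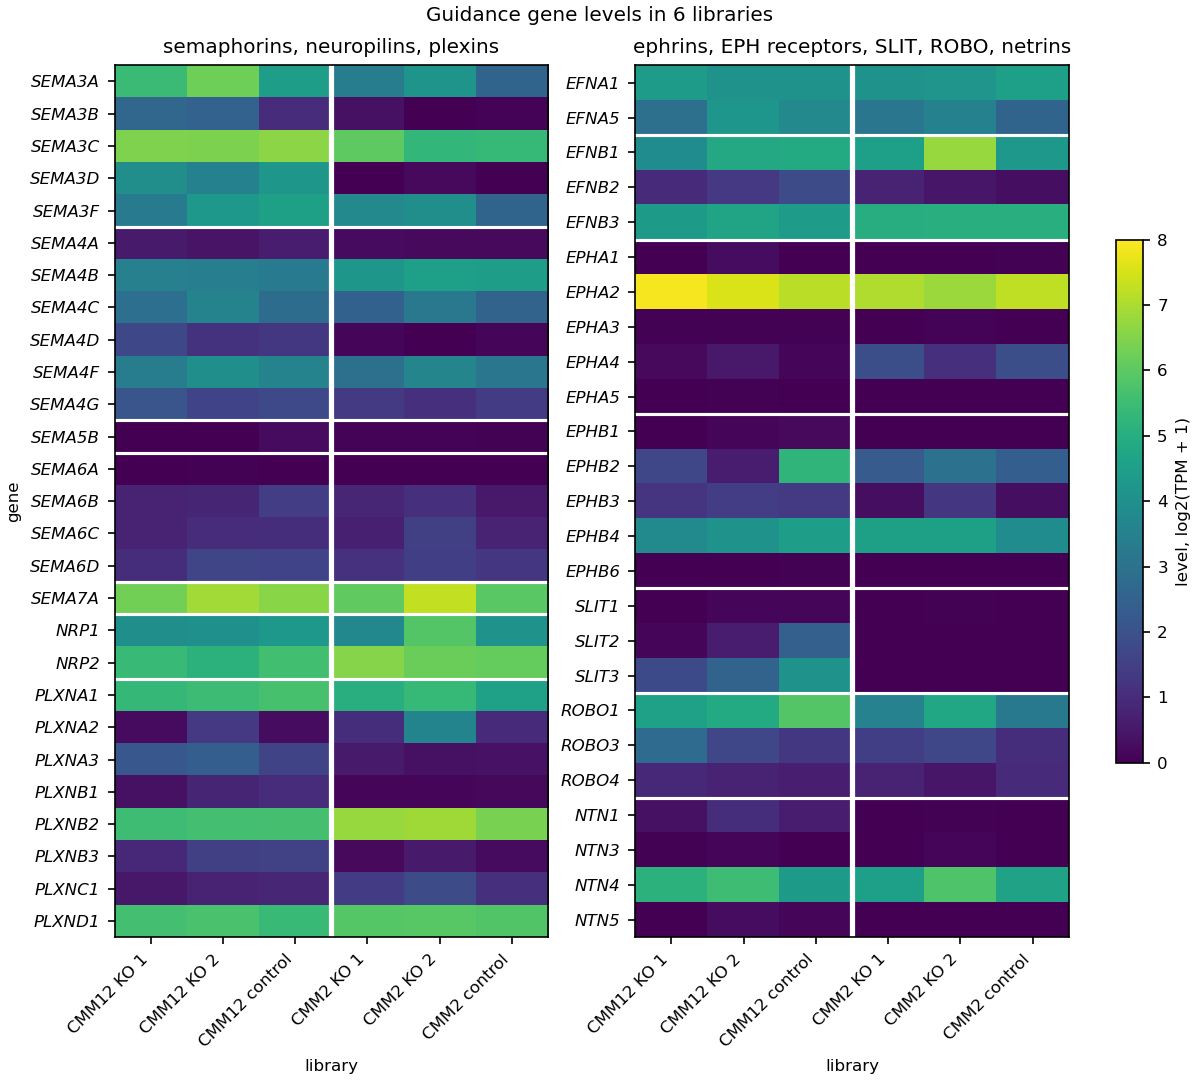
Level of each member with at least 1 count, as log2(TPM + 1) by colour, with genes down the page grouped by subfamily (white lines) and the 6 libraries across. EPHA2 is bright in every library, while SEMA3D and SLIT3 have a visible level in the CMM12 libraries, where their highest values are 17.85 and 16.0 TPM.

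Summed over all 60 members, the level was 840 and 928 TPM in CMM12 KO 1 and KO 2, against 881 TPM in the CMM12 control. In CMM2 the sum was 762 and 1026 TPM in KO 1 and KO 2, against 681 TPM in the CMM2 control. The CMM12 KO libraries thus lay on both sides of their control, and both CMM2 KO libraries lay above theirs. Semaphorin transcripts summed to 269 and 353 TPM in the CMM12 KO libraries against 287 TPM in the control, and to 185 and 270 TPM in the CMM2 KO libraries against 149 TPM in the control. Neuropilins and plexins together summed to 193 and 201 TPM in CMM12 KO libraries against 213 TPM in their control, and to 305 and 360 TPM in CMM2 KO libraries against 250 TPM in theirs. EPH receptors summed to 251 and 203 TPM in CMM12 KO libraries against 202 TPM in their control, and to 160 and 143 TPM in CMM2 KO libraries against 172 TPM in theirs, so both CMM2 KO sums were below the control. The EPHA and EPHB sums lay on opposite sides of the control in each line. In CMM12, EPHA receptors summed to 234 and 185 TPM in KO 1 and KO 2 against 142 TPM in the control. EPHB receptors summed there to 16.4 and 18.2 TPM against 60.1 TPM. In CMM2, EPHA receptors summed to 134 and 112 TPM in KO 1 and KO 2 against 153 TPM in the control. EPHB receptors summed there to 26.4 and 30.6 TPM against 18.4 TPM. Ephrins summed to 61.4 and 87.2 TPM in CMM12 KO libraries against 80.05 TPM in their control, and to 77.5 and 167 TPM in CMM2 KO libraries against 76.3 TPM in theirs. SLIT, ROBO and netrin transcripts summed to 66.5 and 83.5 TPM in CMM12 KO libraries against 99.8 TPM in their control, both below it, and to 35.1 and 84.9 TPM in CMM2 KO libraries against 33.7 TPM in theirs. These subfamilies did not move together in CMM12. Netrins summed to 34.3 and 46.4 TPM in CMM12 KO 1 and KO 2 against 20.1 TPM in the control, both above it. Below the CMM12 control lay SLIT ligands, at 2.62 and 5.4 TPM against 20.55 TPM. ROBO receptors also lay below it, at 29.6 and 31.6 TPM against 59.15 TPM.

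**Figure D2:**
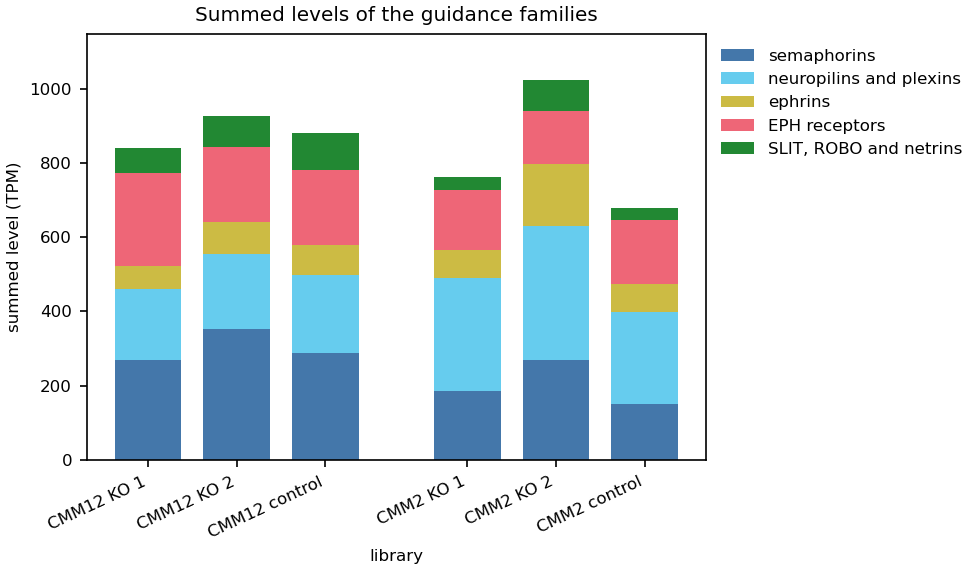
Summed TPM of the member families (stacked colours) in each of the 6 libraries, 1 bar per library. CMM2 KO 2 has the tallest bar, at 1026 TPM, and the CMM2 control the shortest, at 681 TPM.

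The comparison of KO with control asked whether these genes moved with podoplanin loss, and the values within each line came first, since each control is 1 library. A member was counted where both KO libraries lay at least 1.5-fold to the same side of the control on scaled CPM, the count scaled to library size, with 0.5 added. In CMM12, 5 of 42 tested members lay above the control by this measure, SEMA3A, SEMA3B, PLXNA3, ROBO3 and NTN4, against 6.19% of all tested genes. Another 6 lay below it, SEMA6B, EFNB2, EPHB2, SLIT2, SLIT3 and ROBO1, against 5.91% of all tested genes. In CMM2, 4 members lay above the control, SEMA3A, SEMA3F, EFNA5 and EPHB4, against 3.26% of all tested genes, and 0 lay below it, against 1.47%. SEMA3A was the member counted as higher in both lines. At 2-fold in both KO libraries, CMM12 had SEMA3A and SEMA3B above the control (2.09% of genes) and EPHB2, SLIT2 and SLIT3 below it (2.46%), and CMM2 had SEMA3F above (0.693%) and 0 members below (0.359%). By any margin, both KO libraries lay above the control for 12 members in CMM12 (35.6% of genes) and 18 in CMM2 (30.1%), and below it for 18 in CMM12 (34.2%) and 7 in CMM2 (30.9%).

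**Figure D3:**
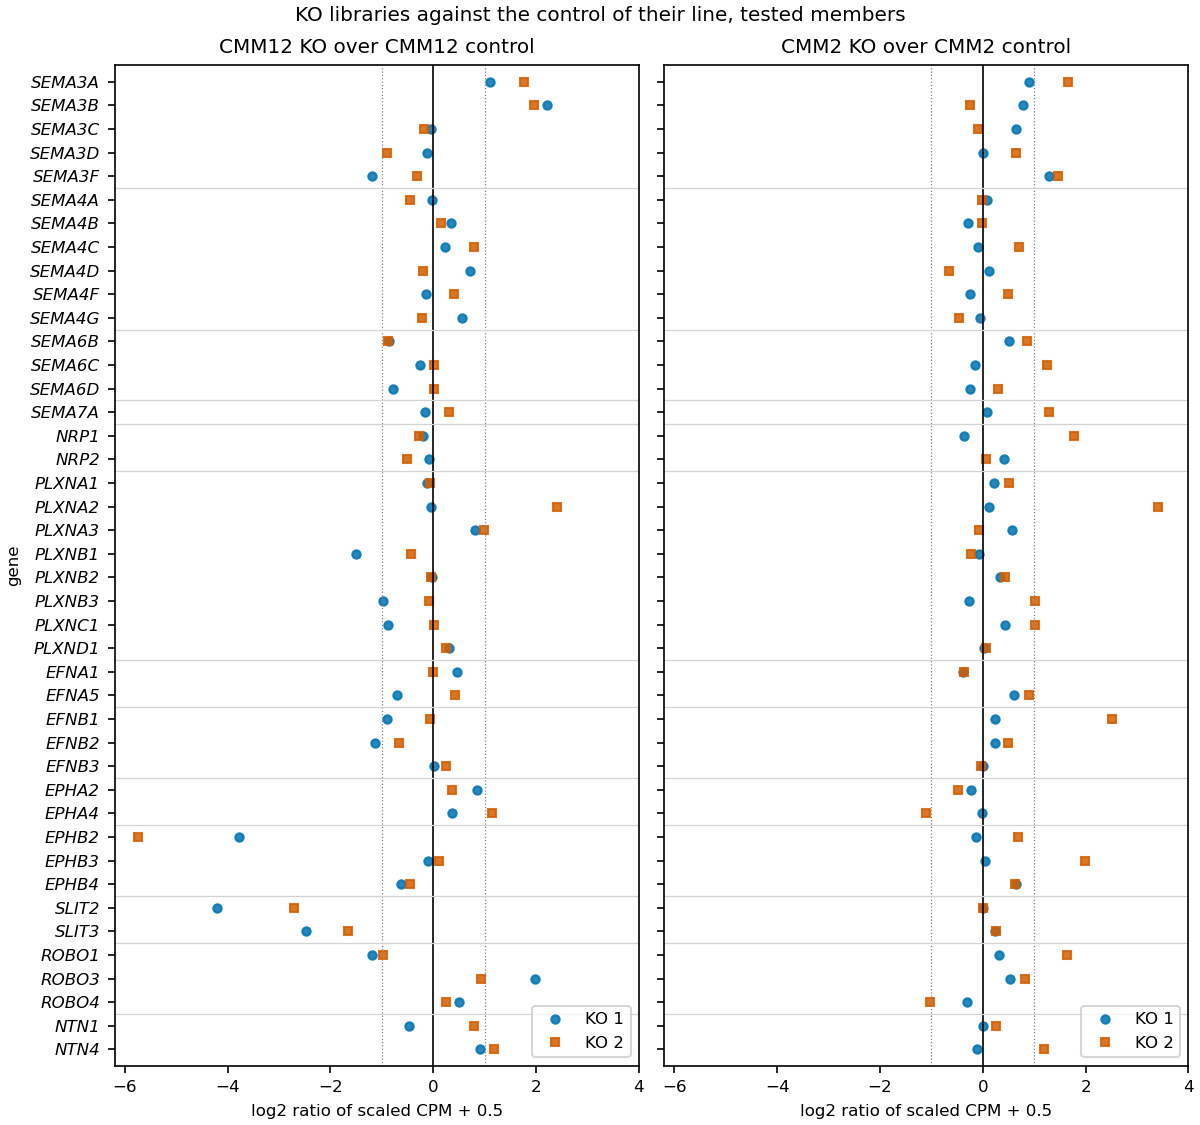
Log2 ratio of each KO library to the control of its line for the 42 tested members, in CMM12 (left) and CMM2 (right), with KO 1 as circles, KO 2 as squares and dotted lines at a 2-fold difference. The CMM12 points of EPHB2, SLIT2 and SLIT3 lie far to the left, and the CMM2 KO 2 squares of PLXNA2 and EFNB1 far to the right of their KO 1 circles.

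Under edgeR's quasi-likelihood test with Benjamini-Hochberg adjustment over all genes, 0 of 42 members passed in CMM12, where 0% of genes passed as higher and 0.00815% as lower. At an unadjusted p under 0.05 there were 1 higher and 3 lower in CMM12, against 2.39% and 3.6% of all genes. In CMM2 edgeR also passed 0 members, with 3 higher and 0 lower at an unadjusted p under 0.05, against 1.43% and 0.473% of all genes. Across lines, with the line as a term, edgeR passed 0 members, with 4 higher and 2 lower at an unadjusted p under 0.05, against 2.07% and 1.96%. DESeq2's Wald test passed EPHB2 as lower in CMM12 (0.196% of genes) and 0 members as higher (0.171%). Across lines it passed SEMA3A as higher (0.0489% of genes) and 0 members as lower (0.0244%). In CMM2 it passed 0 members, against 0.0244% of genes in each direction. limma on log2(TPM + 1) passed 0 members in each of these comparisons. The median log2 change of the 42 members was −0.040 in CMM12, 0.48 in CMM2 and 0.12 across lines, where the median over all tested genes was 0.02, 0.00 and 0.01. The fitted change was above 0 for 20 of 42 members in CMM12 (52.1% of genes), 32 in CMM2 (50.1%) and 27 across lines (52%). The CMM2 median rested on 1 library, for it was 0.069 without CMM2 KO 2 and 0.67 without CMM2 KO 1.

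Among the secreted class 3 semaphorins, SEMA3A was higher in every KO library of both lines. SEMA3A, a repulsive cue that acts through NRP1 and A-type plexins, stood at 42.5 and 74.1 TPM in CMM12 KO 1 and KO 2, against 21.3 TPM in the CMM12 control. In CMM2 it stood at 9.57 and 16.5 TPM in KO 1 and KO 2, against 4.94 TPM in the CMM2 control. KO and control values did not overlap in either line, although every CMM12 value was above every CMM2 value. The fitted log2 change was 1.49 (SE 0.44) in CMM12, 1.36 (SE 0.45) in CMM2 and 1.43 (SE 0.29) over both lines. It passed by DESeq2 across lines (adjusted p 0.0108) and not by edgeR (adjusted p 0.987), and the adjusted p ranged from 0.0108 to 1 over the alternatives. A change of one RNA per cell and a change in the share of cells that make it cannot be told apart in such bulk libraries, for this gene or any other below.

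SEMA3F, a cue that acts mainly through NRP2, was higher in CMM2 KO libraries and lower in CMM12 KO libraries. Its level was 12.6 and 14.5 TPM in CMM2 KO 1 and KO 2, against 4.91 TPM in the CMM2 control. In CMM12 it was 8.94 and 18.3 TPM in KO 1 and KO 2, against 22.5 TPM in the CMM12 control. The log2 fold change was 1.41 (SE 0.46) in CMM2 and −0.70 (SE 0.41) in CMM12, and neither passed by edgeR (adjusted p 1 and 0.864) or by DESeq2 (adjusted p 1 for each). SEMA3B, another secreted semaphorin, had 5.24 and 4.78 TPM in CMM12 KO 1 and KO 2 (107 and 83 counts), against 1.01 TPM in the CMM12 control (20 counts). That was a log2 fold change of 2.37 (SE 1.10), and edgeR's adjusted p was 0.843. In CMM2 it was nearly absent, with 6 and 0 counts in KO 1 and KO 2 and 1 count in the control. SEMA3B and SEMA3F stand near each other in the RefSeq gene order of the assembly UU_Cfam_GSD_1.0, with 4 protein-coding genes between them, and in CMM12 KO libraries their values lay on opposite sides of the control.

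SEMA3C had the highest level of its class, and its KO values lay within 1.5-fold of the control except in CMM2 KO 1. It stood at 85.8 and 85.1 TPM in CMM12 KO 1 and KO 2 against 95.6 TPM in the CMM12 control, and at 63.4 and 38.1 TPM in CMM2 KO 1 and KO 2 against 39.7 TPM in the CMM2 control. SEMA3D stood at 14.5 and 10.5 TPM in CMM12 KO 1 and KO 2, against 17.85 TPM in the CMM12 control, and had 0 and 3 counts in CMM2 KO 1 and KO 2, against 0 counts in the CMM2 control. In the same RefSeq order SEMA3E directly neighbours SEMA3A, and 1 protein-coding gene lies between SEMA3A and SEMA3D. SEMA3E had 0 counts in all 6 libraries, so these neighbours were read at 3 different patterns: SEMA3A in both lines, SEMA3D in CMM12 and SEMA3E in neither.

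Of the membrane-held semaphorins the highest was SEMA7A. SEMA7A, which binds PLXNC1 and integrins, stood at 77.05 and 117 TPM in CMM12 KO 1 and KO 2 against 93.65 TPM in the CMM12 control. In CMM2 it stood at 65.2 TPM in KO 1 and 153 TPM in KO 2, against 61.0 TPM in the CMM2 control, so the high value was that of KO 2 alone. All 6 class 4 semaphorins were tested, and 0 of them lay 1.5-fold to one side of the control in both KO libraries of a line. SEMA4B, the highest of that class, had 10.1 and 9.69 TPM in CMM12 KO libraries against 8.58 TPM in their control, and 17.8 and 21.9 TPM in CMM2 KO libraries against 21.55 TPM in theirs. Class 6 members were low in all libraries: SEMA6D, the highest of them, had 1.06 to 2.18 TPM over the 6 libraries. SEMA6B had 12 and 11 counts in CMM12 KO 1 and KO 2 against 28 counts in the CMM12 control, and 15 and 19 counts in CMM2 KO 1 and KO 2 against 8 counts in the CMM2 control.

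Of the receptors for semaphorins, NRP2 and PLXNB2 were high in all libraries and NRP1 and PLXNA2 differed between the CMM2 KO lines. NRP1, a co-receptor for SEMA3A and for vascular endothelial growth factor, stood at 14.7 and 15.3 TPM in CMM12 KO 1 and KO 2 against 18.3 TPM in the CMM12 control. In CMM2 it stood at 12.3 TPM in KO 1 and 56.8 TPM in KO 2, against 16.4 TPM in the CMM2 control, so the KO libraries lay on opposite sides of that control. NRP2, the co-receptor preferred by SEMA3F, had 41.5 and 34.0 TPM in CMM12 KO libraries against 46.5 TPM in their control, and 92.1 and 73.0 TPM in CMM2 KO libraries against 67.9 TPM in theirs. The plexin PLXNA2 was at 0.17 and 1.49 TPM in CMM12 KO 1 and KO 2 against 0.20 TPM in the CMM12 control. In CMM2 it was at 1.06 TPM in KO 1 and 11.2 TPM in KO 2, against 0.94 TPM in the CMM2 control, so that in both lines KO 2 stood above the other libraries. PLXNA3 had 3.47 and 4.29 TPM in CMM12 KO libraries against 2.10 TPM in their control (log2 0.93, SE 0.45, edgeR adjusted p 0.843).

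PLXNB2, whose best-known ligands are class 4 semaphorins, had 107 and 116 TPM in CMM2 KO 1 and KO 2 against 83.6 TPM in the CMM2 control, and 44.4 and 48.2 TPM in CMM12 KO 1 and KO 2 against 49.2 TPM in the CMM12 control. PLXND1, the receptor of SEMA3E, had the narrowest range over the 6 libraries of the abundant plexins, at 47.9 and 51.0 TPM in CMM12 KO libraries against 42.2 TPM in their control and at 58.0 and 59.9 TPM in CMM2 KO libraries against 55.85 TPM in theirs. Its ligand SEMA3E, as given above, had no counts. Over all members, 3 lay above their control in all 4 KO libraries by any margin, SEMA3A, PLXND1 and ROBO3, against 10.5% of all tested genes. PLXNB1, a receptor of SEMA4D, was the 1 member below its control in all 4, against 10.6% of genes. It had 0.29 and 0.76 TPM in CMM12 KO libraries against 1.01 TPM in their control, and 0.11 and 0.09 TPM in CMM2 KO libraries against 0.12 TPM in theirs. The CMM2 values rest on 9 and 7 counts in KO 1 and KO 2 against 9 counts in the control. CMM2 KO 1 thus lay below its control only after scaling to library size.

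EPHB2, a receptor tyrosine kinase for ephrin-B ligands, was far lower in both CMM12 KO libraries. It stood at 2.29 and 0.52 TPM in CMM12 KO 1 and KO 2 (70 and 13 counts), against 36.8 TPM in the CMM12 control (1093 counts). In CMM2 it stood at 3.88 and 7.03 TPM in KO 1 and KO 2, against 4.20 TPM in the CMM2 control, so the CMM12 control was the library apart from the other 5. The log2 fold change was −4.61 (SE 0.77) in CMM12, which passed by DESeq2 (adjusted p 9.8e-06) and not by edgeR (adjusted p 0.445), with a range of 9.8e-06 to 0.671 over the alternatives. The difference between the KO effects of the lines, CMM12 minus CMM2, was −4.96 (SE 1.16), which also passed by DESeq2 (adjusted p 0.0118) and not by edgeR (adjusted p 1.00), with a range of 0.0118 to 1.00 over the alternatives.

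EPHB4, a receptor of EFNB2 known for its part in vessel formation, was lower in CMM12 KO libraries and higher in CMM2 KO libraries. It had 12.8 and 15.8 TPM in CMM12 KO 1 and KO 2 against 21.6 TPM in the CMM12 control (log2 −0.55, SE 0.24). It had 22.2 and 22.15 TPM in CMM2 KO 1 and KO 2 against 13.9 TPM in the CMM2 control (log2 0.64, SE 0.25). Neither change passed by edgeR (adjusted p 0.833 in CMM12 and 1 in CMM2). EPHB3 had 1.36 and 1.75 TPM in CMM12 KO libraries against 1.59 TPM in their control, and 0.24 and 1.38 TPM in CMM2 KO 1 and KO 2 against 0.23 TPM in theirs. EPHA2 lay above the control in both CMM12 KO libraries and below it in both CMM2 KO libraries, with log2 fold changes of 0.62 (SE 0.30) and −0.35 (SE 0.29) that edgeR did not pass (adjusted p 0.843 and 1).

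Among the ephrins, EFNB1, a ligand of EPHB receptors, had 13.7 and 27.6 TPM in CMM12 KO 1 and KO 2 against 28.5 TPM in the CMM12 control. In CMM2 it had 21.7 TPM in KO 1 and 108 TPM in KO 2, against 18.2 TPM in the CMM2 control, so CMM2 KO 2 was above the range of all other libraries. EFNB2 had 29 and 39 counts in CMM12 KO 1 and KO 2 against 74 counts in the CMM12 control, and 10 and 12 counts in CMM2 KO 1 and KO 2 against 7 counts in the CMM2 control. EFNB3 was the ligand whose KO values strayed least from the control of their line, though its level differed between the lines. It had 19.5 and 24.7 TPM in CMM12 KO libraries against 20.5 TPM in their control, and 30.9 and 31.3 TPM in CMM2 KO libraries against 31.2 TPM in theirs. EFNA1, a ligand of EPHA2, had 20.45 and 15.9 TPM in CMM12 KO libraries against 15.9 TPM in their control, and 16.4 and 17.0 TPM in CMM2 KO libraries against 21.7 TPM in theirs. The second ephrin-A ligand, EFNA5, had 6.79 and 17.4 TPM in CMM12 KO 1 and KO 2 against 12.6 TPM in the CMM12 control, and 7.75 and 10.3 TPM in CMM2 KO 1 and KO 2 against 4.93 TPM in the CMM2 control.

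SLIT2, SLIT3 and their receptor ROBO1 were lower in both CMM12 KO libraries. SLIT3 stood at 2.51 and 4.82 TPM in CMM12 KO 1 and KO 2 (107 and 179 counts), against 16.0 TPM in the CMM12 control (656 counts). The log2 fold change was −2.05 (SE 0.41), and it passed neither by edgeR (adjusted p 0.598) nor by DESeq2 (adjusted p 0.219), with a range of 0.108 to 0.769 over the alternatives. SLIT2 stood at 0.11 and 0.51 TPM (6 and 25 counts) in CMM12 KO 1 and KO 2, against 4.50 TPM (219 counts) in the CMM12 control, a log2 fold change of −3.66 (SE 0.89, edgeR adjusted p 0.702, DESeq2 adjusted p 0.455, range over the alternatives 0.149 to 0.818). Every CMM2 library had 0 counts of SLIT2 and at most 1 count of SLIT3.

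ROBO1, which receives SLIT signals, had 22.7 and 28.6 TPM in CMM12 KO 1 and KO 2 against 57.1 TPM in the CMM12 control (log2 −1.09, SE 0.48). In CMM2 it had 10.6 and 27.1 TPM in KO 1 and KO 2 against 8.38 TPM in the CMM2 control (log2 1.13, SE 0.53), on the other side of the control. edgeR passed neither change (adjusted p 0.833 in CMM12 and 1 in CMM2). ROBO3 was above the control in each KO library, with 5.99 and 2.27 TPM in CMM12 KO 1 and KO 2 against 1.45 TPM in the CMM12 control, and 1.82 and 2.27 TPM in CMM2 KO 1 and KO 2 against 1.06 TPM in the CMM2 control. Its counts were few, 95 and 40 against 21 in CMM12 and 31 and 36 against 18 in CMM2, and the change across lines was 1.301 on the log2 scale (SE 0.53, edgeR adjusted p 0.987). ROBO3 and ROBO4 are direct neighbours in the RefSeq order, and ROBO4, an endothelial receptor, had 17 to 40 counts in each library.

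The netrin signal was almost wholly NTN4, a laminin-related netrin of basement membranes. NTN4 had 34.0 and 45.1 TPM in CMM12 KO 1 and KO 2 against 19.5 TPM in the CMM12 control (log2 1.06, SE 0.53). In CMM2 it had 21.85 TPM in KO 1 and 54.98 TPM in KO 2, against 23.4 TPM in the CMM2 control (log2 0.69, SE 0.52). KO values lay above the control in CMM12 and on both sides of it in CMM2, and edgeR passed neither (adjusted p 0.843 and 1). NTN1, the classical attractant, had 8 and 25 counts in CMM12 KO libraries against 14 counts in their control and at most 1 count in each CMM2 library.

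**Figure D4:**
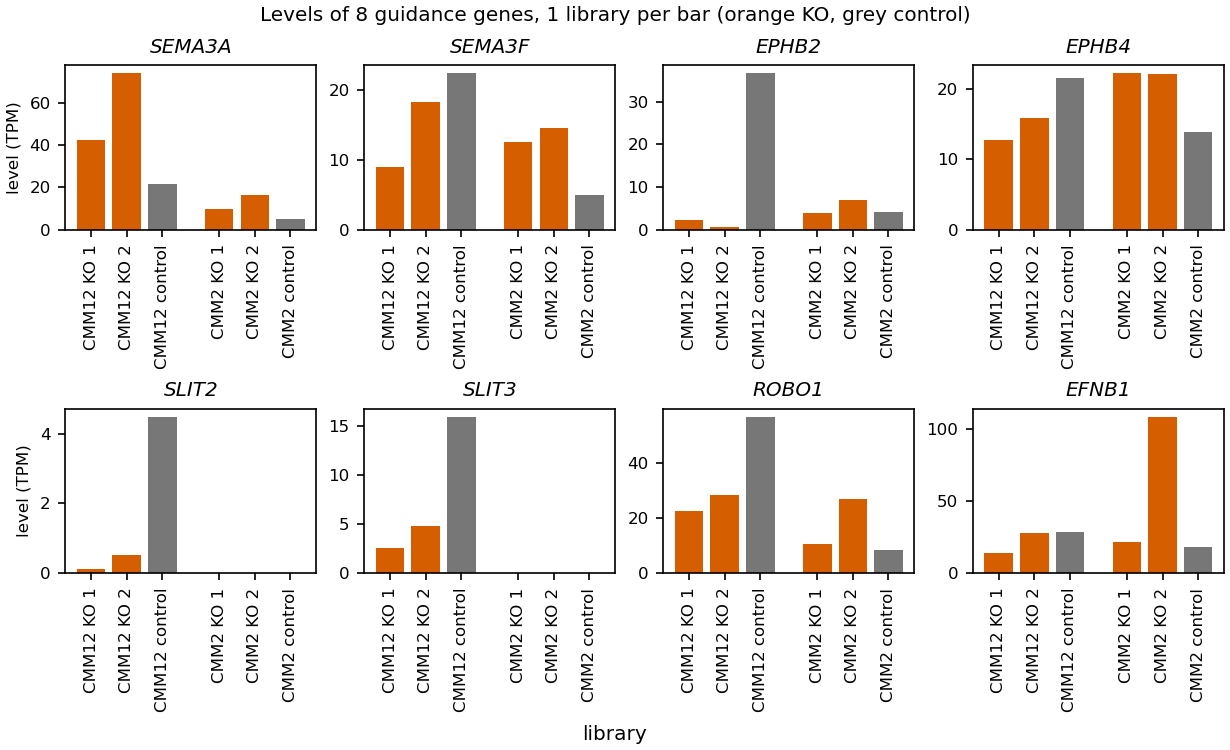
TPM of 8 members in each library, 1 bar per library, with KO libraries in orange to the left of the control (grey) of their line. SEMA3A is above the control in all 4 KO libraries, EPHB2, SLIT2 and SLIT3 are tall in the CMM12 control, where EPHB2 is at 36.8 TPM, and EFNB1 is tall in CMM2 KO 2 at 108 TPM.

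The CMM2 KO lines differed from each other in these genes. In CMM2 KO 2, 12 of 42 members lay at least 2-fold above the control, against 6.5% of all tested genes: SEMA3A, SEMA3F, SEMA6C, SEMA7A, NRP1, PLXNA2, PLXNB3, PLXNC1, EFNB1, EPHB3, ROBO1 and NTN4. In CMM2 KO 1, SEMA3F alone did so, against 1.46% of all genes. Below the control by at least 2-fold were EPHA4 and ROBO4 in CMM2 KO 2, against 2.83% of genes, and 0 members in CMM2 KO 1, against 1.03%. Over the members the log2 ratio to the control had a median of 0.49 for CMM2 KO 2 and 0.06 for CMM2 KO 1. At 1.5-fold, 19 members lay above and 3 below the control in CMM2 KO 2 (15% and 9.37% of genes), and 6 above and 0 below in CMM2 KO 1 (6.14% and 3.86%). In CMM12, KO 1 had 3 members at least 2-fold above and 7 below the control, against 4.07% and 5.32% of genes, and KO 2 had 5 above and 3 below, against 6.27% and 4.76%. At 1.5-fold the CMM12 counts were 7 above and 14 below in KO 1 (11.7% and 13.1% of genes) and 9 above and 7 below in KO 2 (13.6% and 12%). Each of these ratios compares 1 library with 1 library and carries no test.

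The lines were also set against each other for their KO effects. The KO libraries lay above the control in CMM2 and below it in CMM12 for 10 of 42 members, against 10.2% of all tested genes. SLIT3 is among the 10 on 1 count in each CMM2 KO library and 0 counts in the CMM2 control. The opposite pattern held for 4 members, against 11% of genes. The median difference of the KO effects, CMM12 minus CMM2, was −0.49 over the members and −0.01 over all genes, and it was −0.017 without CMM2 KO 2. It was above 0 for 15 of 42 members, against 49.1% of genes. The edgeR test passed 0 members for the difference, where 0% of genes passed in each direction. At an unadjusted p under 0.05 there were 0 higher and 5 lower, against 1.45% and 2.39% of genes. DESeq2 passed EPHB2 as lower (0.163% of genes) and 0 members as higher (0.0163%). The 5 were EPHB2, SEMA3F at −2.11 (SE 0.61), EPHB4 at −1.19 (SE 0.35), ROBO1 at −2.21 (SE 0.72) and SLIT3, whose CMM2 values rest on at most 1 count per library.

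The contrast of CMM12 with CMM2 at equal genotype asked which guidance genes mark the lines. By edgeR, 12 of 42 members were higher in CMM12, against 14.6% of all tested genes, and 5 were lower, against 11.2%. Of the class 3 semaphorins 4 of 5 tested members were higher in CMM12: SEMA3A, SEMA3B, SEMA3C and SEMA3D. The others higher in CMM12 were SEMA4D, the plexins PLXNA3, PLXNB1 and PLXNB3, EFNB2, SLIT2, SLIT3 and NTN1. Lower in CMM12 were SEMA4B, NRP2, PLXNB2, EFNB3 and EPHA4. Every CMM12 library was above every CMM2 library for 15 members, against 24.6% of genes, and below for 7, against 21.5%. DESeq2 called 13 higher and 6 lower, against 17.7% and 14.5% of genes, and at an unadjusted p under 0.05 edgeR had 13 higher and 7 lower, against 22% and 18%. The fitted difference was above 0 for 25 members, against 52.2% of genes, with a median of 0.32 over the members and 0.04 over all genes.

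Secreted cues gave the widest gaps. SLIT3 had 942 counts over the CMM12 libraries and 2 counts over the CMM2 libraries, a ratio of 467 with an exact 95% counting interval of 129 to 3861 (edgeR adjusted p 6.1e-04). SEMA3D had 865 counts in CMM12 and 3 counts in CMM2, which is a ratio of 286, counting interval 97.5 to 1389, with an edgeR adjusted p of 9.6e-04. SLIT2 had 250 counts in CMM12 and 0 counts in CMM2, and was at least 82.6-fold higher in CMM12 against a floor of 3 counts over the CMM2 libraries (edgeR adjusted p 0.00834). Most SLIT3 and SLIT2 counts came from the CMM12 control, with 656 of SLIT3 and 219 of SLIT2. Without that library the fitted log2 difference was 7.06 for SLIT3, where it was 8.41 with all libraries, and 7.01 for SLIT2, where it was 9.19 and edgeR's adjusted p became 0.0722. All 3 CMM2 counts of SEMA3D were in CMM2 KO 2, and the fitted log2 difference was 11.2 without it and 7.95 with all libraries. NTN1 gave 6.95 without CMM2 KO 2 and 5.14 with all libraries. NTN1 had 47 counts in CMM12 and 1 count in CMM2, which is a ratio of 46.6, counting interval 7.96 to 1879, with an edgeR adjusted p of 0.0195, and it no longer passed without the CMM12 control (0.0740), CMM12 KO 2 (0.0819), the CMM2 control (0.0691) or CMM2 KO 1 (0.0786). Over all alternatives, edgeR, DESeq2 and limma gave adjusted p-values of 5.7e-07 to 0.169 for SLIT2 and 0.0063 to 0.170 for NTN1. These intervals and floors cover counting error only.

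SEMA3B was 4.81 higher on the log2 scale in CMM12 (SE 0.83, edgeR adjusted p 0.00718), from 1.01 to 5.24 TPM over the CMM12 libraries and 0 to 0.27 TPM over the CMM2 libraries. SEMA4D, a membrane semaphorin that binds B-type plexins, was 4.69 higher (SE 0.80, edgeR adjusted p 0.00679), with 2.35, 1.27 and 1.48 TPM in CMM12 KO 1, KO 2 and control and at most 0.10 TPM in CMM2. Both rest on few CMM2 counts: without CMM2 KO 1 the log2 difference was 6.31 for SEMA3B and 5.32 for SEMA4D, and without CMM2 KO 2 it was 4.05 for SEMA3B and 4.10 for SEMA4D. Its receptor PLXNB1 was higher in CMM12 as well, by 2.46 (SE 0.53, edgeR adjusted p 0.0157), at 0.29 to 1.01 TPM in CMM12 and 0.09 to 0.12 TPM in CMM2. PLXNA3 was 2.997 higher in CMM12 (SE 0.32, edgeR adjusted p 0.00157), and PLXNB3, expressed at 0.86 to 1.96 TPM in CMM12 and 0.14 to 0.49 TPM in CMM2, was 2.48 higher (SE 0.58, edgeR adjusted p 0.0195). EPHA4, a receptor of both ephrin classes, was lower in CMM12 (log2 −3.49, SE 0.72, edgeR adjusted p 0.0130), at 0.16, 0.47 and 0.08 TPM in CMM12 KO 1, KO 2 and control and 2.77, 1.17 and 2.76 TPM in CMM2 KO 1, KO 2 and control. PLXNB1 and PLXNB3 no longer passed by edgeR without the CMM12 control (adjusted p 0.0938 and 0.0941), CMM12 KO 2 (0.0696 and 0.0830), the CMM2 control (0.0750 and 0.0872) or CMM2 KO 1 (0.0548 and 0.0690), and EPHA4 did not without the CMM2 control (0.0620) or CMM2 KO 1 (0.0715). The log2 difference of EPHA4 was −4.32 without CMM12 KO 2 and −2.85 when either control library was left out, and that of PLXNB3 was 3.25 without CMM2 KO 2. Over all alternatives, edgeR, DESeq2 and limma gave adjusted p-values of 0.00182 to 0.199 for PLXNB1, 8.6e-04 to 0.0941 for PLXNB3 and 1.8e-04 to 0.0715 for EPHA4.

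**Figure D5:**
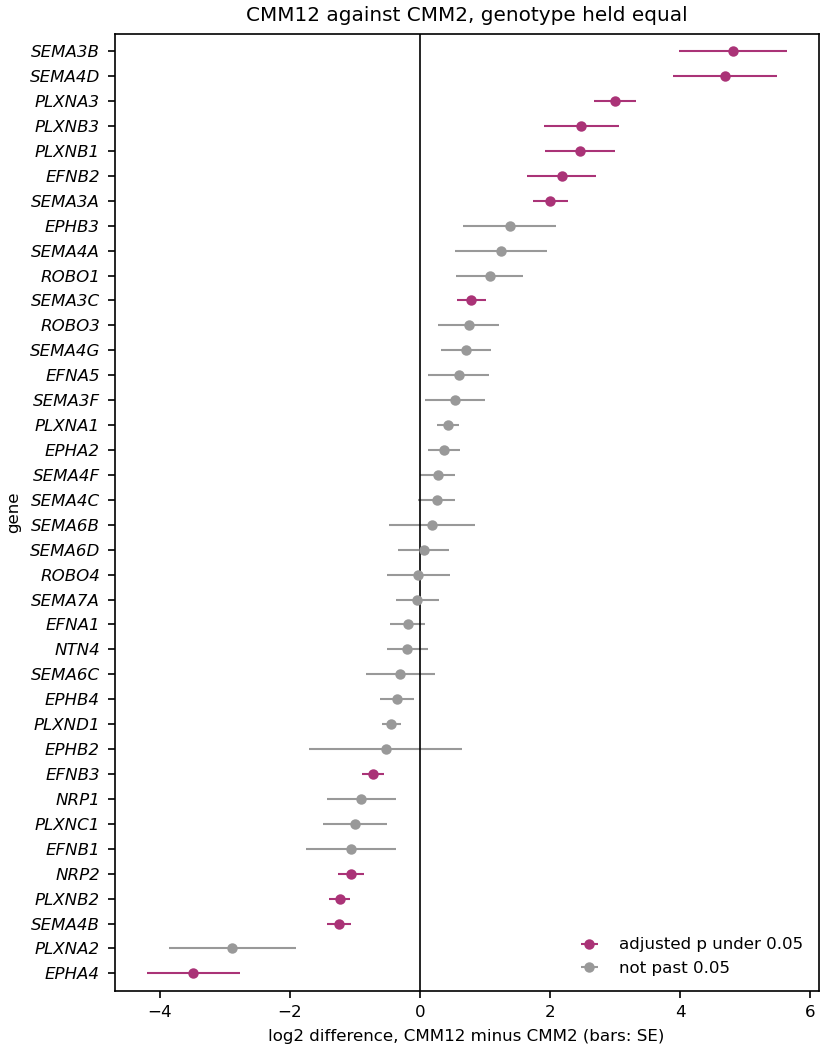
Log2 difference of CMM12 minus CMM2 at equal genotype for the tested members with more than 3 counts in CMM2, with bars of 1 standard error and purple for an edgeR adjusted p under 0.05. SEMA3B and SEMA4D lie at the top, at 4.81 and 4.69, and EPHA4 at the bottom, at −3.49.

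PLXNB2 was lower in CMM12 (log2 −1.23, SE 0.16, edgeR adjusted p 0.00277), as were SEMA4B (log2 −1.24, SE 0.19, edgeR adjusted p 0.00452), NRP2 (log2 −1.06, SE 0.20, edgeR adjusted p 0.0104) and EFNB3 (log2 −0.72, SE 0.17, edgeR adjusted p 0.0217). SEMA3A was 2.00 higher in CMM12 (SE 0.27, edgeR adjusted p 0.00301) and SEMA3C 0.79 higher (SE 0.23, edgeR adjusted p 0.0403). EPHA2 and SEMA7A, the most abundant members, gave log2 differences of 0.37 (SE 0.25) and −0.05 (SE 0.33), with edgeR adjusted p of 0.303 and 0.932. Leaving out each library in turn, edgeR called 6 (without the CMM12 control) to 14 members (without CMM2 KO 2) as higher and 3 to 5 as lower. SEMA3A, SEMA3B, SEMA3D, SEMA4B, SEMA4D, NRP2, PLXNA3, PLXNB2 and SLIT3 were called with each library left out. SEMA3C was called only without CMM2 KO 1, EFNB3 only without CMM2 KO 2, and EFNB2 only without CMM2 KO 2 or CMM12 KO 1.

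Outside these families, 70 further genes of guidance signalling were listed: other receptors and ligands, the effectors of semaphorin, ephrin and ROBO signalling, and shared regulators of the actin skeleton. Of these 68 were found and 57 tested. The list was fixed with earlier results of these data known. Its counts beside the shares of all genes are therefore not an independent comparison. edgeR passed 0 of the 57 in each KO comparison, where 0% of all genes passed except for 0.00815% as lower in CMM12. At an unadjusted p under 0.05 there were 0 higher and 6 lower in CMM12 (2.39% and 3.6% of all genes), 1 and 1 in CMM2 (1.43% and 0.473%), and 0 and 4 across lines (2.07% and 1.96%). DESeq2 passed TIAM1, a Rac exchange factor that can act below ephrins, as lower in CMM12, among 0.196% of all genes. TIAM1 stood at 0.07 and 0.10 TPM in CMM12 KO 1 and KO 2 against 5.89 TPM in the CMM12 control (DESeq2 adjusted p 7.7e-07, edgeR 0.337), and at 3.12 and 8.77 TPM in CMM2 KO 1 and KO 2 against 2.59 TPM in the CMM2 control. For the difference of KO effects DESeq2 passed TIAM1 (adjusted p 9.1e-05) and PTK7 (adjusted p 0.0333) as lower, among 0.163% of all genes. edgeR passed neither (adjusted p 0.99996 for each). PTK7, a pseudokinase receptor that can associate with plexins, had 29.8 and 32.4 TPM in CMM12 KO libraries against 67.5 TPM in their control. In CMM2 KO libraries it had 20.5 and 30.2 TPM against 13.1 TPM in their control. Its change within CMM12 passed neither by edgeR (adjusted p 0.702) nor by DESeq2 (adjusted p 0.198).

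In both CMM12 KO libraries, PTK7, KDR, VEGFC, VAV3 and TIAM1 lay at least 2-fold below the control and UNC5A and RND1 at least 2-fold above it, among the 57, against 2.46% and 2.09% of all genes. In CMM2, 0 of the 57 did so in either direction, against 0.359% of all genes below and 0.693% above. VEGFC, a ligand of vascular receptors, had 41.2 and 44.1 TPM in CMM12 KO libraries against 107 TPM in their control, and VAV3, an exchange factor below EPH receptors, had 2.78 and 4.87 TPM against 10.9 TPM in the control. KDR, a vascular endothelial growth factor receptor that pairs with NRP1, had 4 and 19 counts in CMM12 KO libraries against 93 counts in the control and 0 counts in CMM2. The netrin receptor gene UNC5A had 2.09 and 3.36 TPM in CMM12 KO libraries against 1.04 TPM in the control, and RND1, a plexin-binding GTPase, had 4.44 and 7.44 TPM against 1.28 TPM. Between lines edgeR called 7 of the 57 higher in CMM12 (NEO1, KDR, CRMP1, FYN, GSK3B, NGEF and PAK2), against 14.6% of all genes, and 4 lower (FES, SRGAP1, ROCK2 and SSH1), against 11.2%. FES, a kinase that acts below plexins, had 0.68, 0.26 and 0.09 TPM in CMM12 KO 1, KO 2 and control and 11.99, 6.54 and 9.23 TPM in CMM2 KO 1, KO 2 and control (log2 −4.97, SE 0.62, edgeR adjusted p 0.00241).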

How the data were processed

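RNA was sequenced from CMM12 and CMM2 cells in 6 libraries, grouped by the titles of the labels. The submitters' processing notes name the build CanFam3.1 and the tools RSEM 1.3.3 and STAR 2.7.3a, with no role for each. No source used here gives the strand setting, and without it reads of overlapping or antisense genes cannot be told apart. Expected counts per gene and TPM values were deposited by the authors, per the file headers. Library totals were 9732927 to 11807835 counts, and 3 counts corresponded to 0.259 to 0.294 CPM.

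Expected counts were rounded to whole numbers and tested with edgeR 4.0.16 (glmQLFit, glmQLFTest, TMM factors, filterByExpr) in R 4.3.3, with Benjamini-Hochberg adjustment at 0.05 over 12270 genes. KO effects by line, and their difference, were fitted with 1 mean per group, leaving 2 residual degrees of freedom, and each lone control is assumed to vary like the KO pairs. Effects across lines and between lines came from an additive model (3 residual degrees of freedom). Each SE given with an edgeR value, in text and figures, is the absolute log2 change divided by the square root of the test's F statistic. DESeq2 1.42.0, limma 3.58.1 on log2(TPM + 1) and log2(TPM + 0.1), and other scalings and filters were alternatives. The scripts were tested on simulated data.

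Named members were those with both KO libraries of a line at least 2-fold from the control at a mean of at least 1 TPM or 1 CPM, those past 0.05 by edgeR or DESeq2 in a KO comparison, the 10 largest differences between lines without overlap, and the highest member of each subfamily. Other members are given to complete their subfamily or because their values stood out, and were chosen after their values were seen. Members, gene lists and tests were chosen with earlier results of these data known. Gene order came from RefSeq (UU_Cfam_GSD_1.0), in which all 60 symbols matched.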

Additional observations from a re-analysis of the deposited data

Results flagged for a closer look

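The results below had KO libraries on opposite sides of the controls in the 2 lines, or a difference of KO effects that passed a test. SLIT3, which had at most 1 count in each CMM2 library, also lay on opposite sides and is not listed. Values are the KO effect in CMM12 minus that in CMM2 on the log2 scale, from edgeR, whose adjusted p was 1.00 for each. DESeq2 passed EPHB2 at −4.96 (SE 1.16, DESeq2 adjusted p 0.0118), and no other of these genes. The difference was −2.23 (SE 1.21) for EFNB1, −1.56 (SE 1.02) for EFNB2, −1.19 (SE 0.35) for EPHB4, −2.21 (SE 0.72) for ROBO1, −2.11 (SE 0.61) for SEMA3F and −2.16 (SE 1.21) for SEMA6B. It was −0.53 (SE 0.42) for NRP2, −0.45 (SE 0.35) for PLXNA1 and −0.42 (SE 0.33) for PLXNB2. EPHA2 at 0.97 (SE 0.42), EPHA4 at 2.38 (SE 1.43), ROBO4 at 1.19 (SE 0.99) and SEMA4B at 0.41 (SE 0.39) had the other sign.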

How the results depend on the processing

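No single-gene value changed sign under the alternatives run, but medians near 0 did. The CMM12 median of −0.040 became 0.036 without the low-count filter and 0.0029 without CMM12 KO 1. The median of 0.12 across lines was −0.040 without the CMM2 control, but the KO effect of that fit came from CMM12 alone. Of the single-gene values under alternatives, 268 kept their side of the threshold, 5 came to pass it and 25 no longer passed it; of the counts and medians, 233 stayed close and 26 moved. DESeq2 called 1 member as lower in CMM12 (EPHB2), 1 as higher across lines (SEMA3A) and 1 as lower for the difference of KO effects (EPHB2). Without the low-count filter edgeR called 1 member as lower in CMM12, and the median between lines was 0.53. limma on log2(TPM + 1) called 7 members higher in CMM12 than in CMM2. Without a filter on TPM, limma gave medians of 0.094 in CMM2, 0.13 between lines and −0.13 for the difference, and on log2(TPM + 0.1) a median of −0.13 in CMM12. At 2-fold in both KO libraries, 2 members lay above and 3 below the control in CMM12, and 1 above in CMM2; the cause of these moves was not tested, apart from the stricter fold.

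Leaving out each library in turn gave medians of 0.069 to 0.67 in CMM2, −0.040 to 0.48 across lines, 0.28 to 0.52 between lines and −0.71 to −0.017 for the difference. It gave 0 to 1 members lower in CMM12, 6 to 14 higher and 3 to 5 lower between lines. With 1 KO library alone set against the control at 1.5-fold, 7 to 9 members lay above and 7 to 14 below in CMM12, and 6 to 19 above and 0 to 3 below in CMM2. Without a line's only control, the KO effect of that line and the difference could not be fitted. The fit across lines then took its KO effect from the other line alone. Its medians, −0.040 without the CMM2 control and 0.48 without the CMM12 control, describe 1 line each. The range given for SEMA3A across lines includes these fits. These single-KO counts and the bias-adjusted edgeR fit were chosen after seeing the data.

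The KO numbers are shared by the lines, but the deviations of same-numbered KO libraries correlated at 0.0606 over 12270 genes, so the numbers were not taken as pairs. With the replicate number as a block, edgeR called 0 members in the KO comparisons, and 12 higher and 6 lower between lines. With 1 control per line and 2 or 3 residual degrees of freedom, an adjusted p above 0.05 does not show that a gene did not differ.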
